A study of Mus musculus with 8 samples.

Results

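The cells described here are heart macrophages that carry transcripts of the resident-type markers Lyve1, Timd4 or Folr2. A cell barcode was taken as a member of this gate when its hashtag placed it in the heart, it held at least 5 UMIs (unique molecular identifiers, each a counted transcript) of C1qa, C1qb and C1qc together, and it held at least 2 UMIs of Lyve1, Timd4 and Folr2 together. Barcodes with 5 or more UMIs of the fluorescent protein transcripts agfp and kgfp, with any Cd79a, or with more than 5 UMIs of S100a8 and S100a9 were left out. The gate held 1222 of the 11130 barcodes of the series, 1222 of the 5324 heart barcodes past the filters and 1222 of the 2505 heart barcodes with at least 5 C1q UMIs. By mouse there were 437 and 320 members with stroke marrow, against 99 and 366 with control marrow.

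The study transplanted bone marrow from donors that had had a stroke, or from control donors, into marrow-depleted recipients, and then profiled myeloid cells of the recipients' blood and heart. All 4 recipients were Mx1Cre:c-Myb fl/fl mice, in which Cre under the interferon-responsive Mx1 promoter can delete c-Myb, a transcription factor that blood stem cells need. There were thus 2 groups of 2 mice, stroke marrow and control marrow in recipients of the same labelled genotype, and no group without transplant was analysed here. Mx1-driven Cre is not limited to blood cells, cells that do not depend on c-Myb can persist in such a host, and the labels give neither age, sex, the time since transplant nor which cells carry a fluorescent protein. CD45+CD11b+ cells of the blood and of the heart of each animal were sorted, hashed with a different antibody for each organ and pooled into 1 droplet library. The numbers at the end of the barcodes were matched to mice through the sample numbers in the submitters' descriptions, which no file states directly, and every donor comparison rests on this match.

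Macrophages of the healthy heart fall into a long-lived population that is seeded before birth and renews itself locally, and a population that is replaced by blood monocytes. In mice the long-lived cells are known for LYVE1, a hyaluronan receptor, TIMD4, a receptor for phosphatidylserine on dying cells, and FOLR2, a folate receptor. They carry little MHC class II and little CCR2, the chemokine receptor that brings monocytes out of the marrow, lie along vessels and clear debris of cardiomyocytes. Embryonic macrophages that settle in tissues arise without c-Myb, whereas blood stem cells require it.

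The organ of each barcode was read from 2 hashtag oligonucleotides, which are shown because they alone separate heart from blood within a library.
Heart hashtag: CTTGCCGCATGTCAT
Blood hashtag: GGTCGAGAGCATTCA
In GRCm38, Lyve1 lies on chromosome 7 from 110850607 to 110863239 (minus strand), Timd4 on chromosome 11 from 46810800 to 46844332 (plus strand) and Folr2 on chromosome 7 from 101839988 to 101857194 (minus strand). The next sequences are the 250 bases before a RefSeq start (GRCm38.p6, written along the gene's strand). The genes are 2 of the gate, Cd163, which was higher in members than in other macrophages, and H2-Eb1, which was lower. They are shown for the core motif of MAF, a transcription factor of resident macrophages whose transcript was higher in members, as given below. Capitals mark TGCTGA or its reverse complement TCAGCA.
Timd4, chr11:46810549-46810798, plus strand: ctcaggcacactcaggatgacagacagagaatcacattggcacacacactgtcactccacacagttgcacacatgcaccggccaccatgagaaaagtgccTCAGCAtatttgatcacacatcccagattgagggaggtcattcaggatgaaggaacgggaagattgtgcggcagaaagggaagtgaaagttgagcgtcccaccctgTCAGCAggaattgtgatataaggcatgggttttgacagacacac
Folr2, chr7:101857191-101857440, minus strand: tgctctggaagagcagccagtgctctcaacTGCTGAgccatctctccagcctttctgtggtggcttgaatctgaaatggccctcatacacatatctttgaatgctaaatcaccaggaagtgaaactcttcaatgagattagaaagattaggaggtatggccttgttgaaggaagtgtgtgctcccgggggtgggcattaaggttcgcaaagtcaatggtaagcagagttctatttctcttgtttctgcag
Cd163, chr6:124304401-124304650, plus strand: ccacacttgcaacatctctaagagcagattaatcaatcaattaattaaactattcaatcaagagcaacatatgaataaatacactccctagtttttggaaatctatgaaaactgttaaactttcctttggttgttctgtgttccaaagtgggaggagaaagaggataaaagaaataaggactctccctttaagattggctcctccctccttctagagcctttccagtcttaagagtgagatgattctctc
H2-Eb1, chr17:34305617-34305866, plus strand: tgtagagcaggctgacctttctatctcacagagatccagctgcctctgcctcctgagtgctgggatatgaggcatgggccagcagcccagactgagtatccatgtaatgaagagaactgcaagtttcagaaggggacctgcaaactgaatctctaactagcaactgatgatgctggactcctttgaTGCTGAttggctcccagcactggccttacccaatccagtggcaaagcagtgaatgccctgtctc
The motif stood in the windows of Timd4 (2 matches), Folr2 (1 match) and H2-Eb1 (1 match) and not in the window of Cd163. Over both strands, 16.1% of 32851 promoter windows of the same length held it. A match is not a shown binding site. Lyve1 has no printed window.

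The 4 libraries held between 10067873 and 16513840 gene UMIs in 2020 to 3303 barcodes, with median UMIs per barcode between 4005 and 4689. Members had median UMIs of 5132 and 5134.5 in the stroke mice, against 5839 and 4992 in the control mice. Control mouse 1 stood apart from the other 3 mice. Xist, the RNA of the inactive X chromosome, was found in 89.93% and 88.12% of members of the stroke mice, and in 0 of 99 members of control mouse 1 against 89.89% in control mouse 2. That mouse had Y-linked transcripts in 67.68% of its members, and it had the fewest members of the 4. Only its members held UMIs of kgfp. Xist, Y-linked transcripts and kgfp were thus unbalanced between the donor groups. The part of sex or of kgfp in donor differences was not tested. No barcode sequence was shared between members of different libraries (28 were shared over all barcodes). Of the 4810 blood barcodes past the filters 0 met the gate, which allows a share of up to 0.06237% (3 counts of the total, counting error only).

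The labelled cell type was checked against its 8 markers. Because the gate itself uses C1qa, Lyve1, Timd4 and Folr2, and because the barcodes were chosen by what they express, the marker levels are a description with no test. A set of other heart macrophages served for comparison: 555 barcodes that met every other limit of the gate and had 0 UMIs of Lyve1, Timd4 and Folr2 (called 0-UMI macrophages here). The second comparison set was 228 GFP-rich macrophages, with at least 5 C1q and at least 5 GFP UMIs and the same limits on Cd79a, S100a8 and S100a9. The values of the 4 mice are given in the order stroke 1, stroke 2, control 1 and control 2. Marker levels are plain CPM, the UMIs of a gene per 1000000 gene UMIs of the same mouse and gate.

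**Figure D1:**
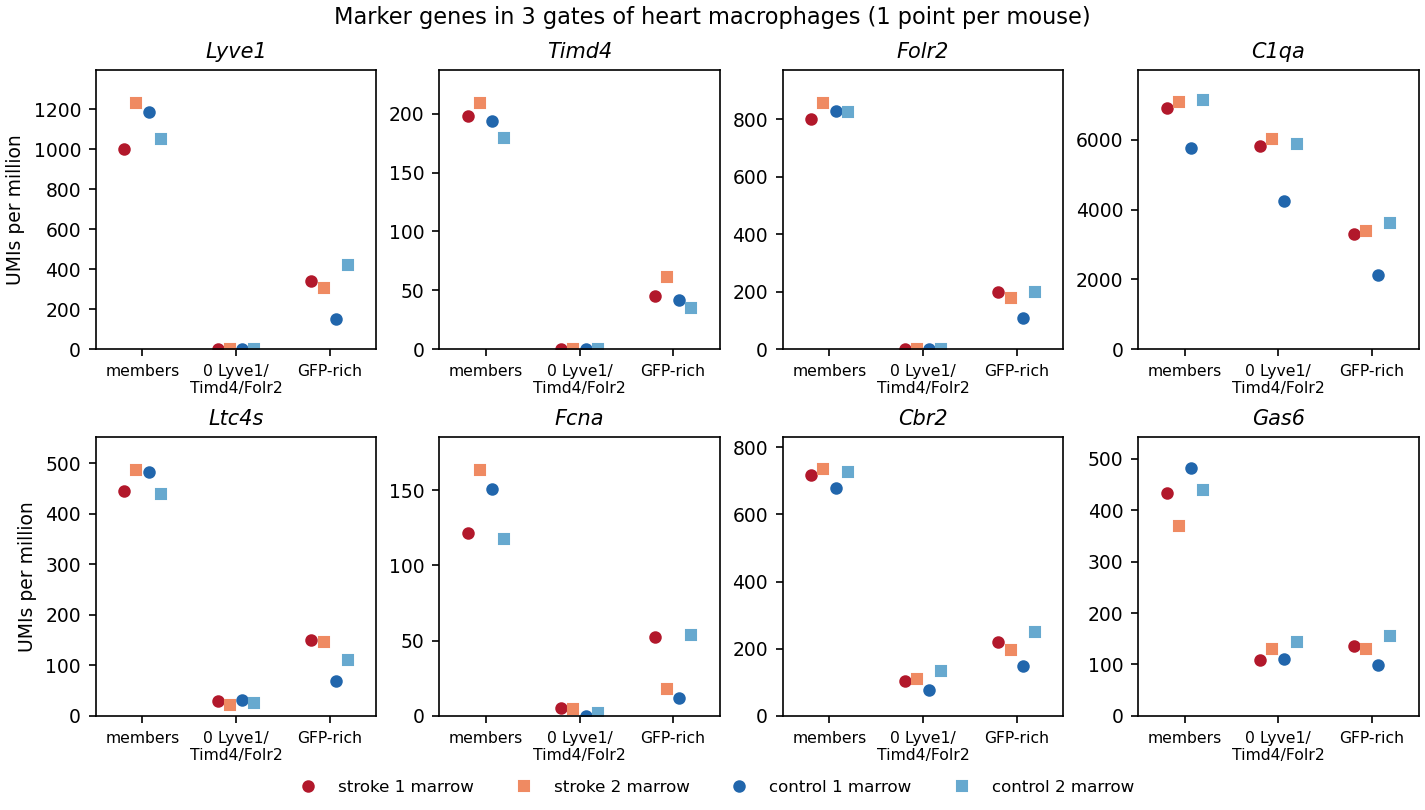
Plain CPM (UMIs per 1000000 gene UMIs) of the 8 markers in members, 0-UMI macrophages and GFP-rich macrophages, 1 point for each mouse and gate (4 mice). Ltc4s sits between 439.9 and 487.4 in members, between 22.15 and 31.87 in 0-UMI macrophages and between 68.27 and 151.0 in GFP-rich macrophages, while Lyve1, Timd4 and Folr2 are at 0 in 0-UMI macrophages by the rule.

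Lyve1 reached 1001, 1230, 1185 and 1051 plain CPM in members, against 340.7, 304.8, 148.7 and 422.5 in GFP-rich macrophages. Folr2 reached 801.0, 856.1, 827.5 and 825.4 in members, against 198.4, 179.3, 107.3 and 200.2 in GFP-rich macrophages. Timd4 was the lowest of the 3 gate genes, with 198.2, 209.0, 193.7 and 179.5 in members, against 44.93, 61.48, 41.45 and 34.68 in GFP-rich macrophages. None of the 4 mice had a GFP-rich value that reached its members' value for these genes. C1qa, a chain of the complement starter C1q, was at 6909, 7080, 5753 and 7147 plain CPM in members, against 5833, 6020, 4230 and 5874 in 0-UMI macrophages. It was thus a strong transcript of both sets.

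The 4 markers outside the gate had larger members' sums in every mouse. Ltc4s, which makes leukotriene C4, had 444.8, 487.4, 482.7 and 439.9 plain CPM in members, against 28.73, 22.15, 31.87 and 25.15 in 0-UMI macrophages. Fcna, which encodes the lectin ficolin A, had 121.5, 163.3, 151.0 and 117.5 in members, against 5.223, 4.746, 0 and 1.677 in 0-UMI macrophages. Cbr2, a carbonyl reductase, had 715.7, 735.6, 679.7 and 725.7 in members, against 103.2, 110.7, 76.49 and 132.5 in 0-UMI macrophages. Gas6, a protein that bridges dying cells to MERTK and AXL, was the least separate of them, at 432.5, 369.3, 482.7 and 438.9 in members, against 108.4, 129.7, 111.6 and 144.2 in 0-UMI macrophages. The values go with the label, and the 4 mice lay close together in each.

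By share of barcodes, Folr2 came before Lyve1 and Timd4. At 2000 UMIs per barcode, to which all barcodes were thinned so that depth was equal, Folr2 was found in 75.78% of members, Lyve1 in 69.55% and Timd4 in 31.14%. Without thinning the shares were 94.03%, 82.82% and 55.97%. Ltc4s was found in 44.29% of thinned members, against 4.832% of 0-UMI macrophages, 15.7% of GFP-rich macrophages and 0.2566% of blood barcodes with no C1q UMI. The last share comes from cells that should lack the gene. Choosing them for 0 C1q UMIs also leaves out barcodes with free macrophage RNA. That share can therefore lie under the background of free RNA. Before thinning, median UMIs were 5121.5 in members and 4078 in those blood barcodes. Ccr2 was found in 3.846% of members, against 15.32% of 0-UMI macrophages, 64.04% of GFP-rich macrophages and 31.54% of the blood barcodes.

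The members were not uniform in the genes that define them. All 3 gate genes were found together in 563 members (46.07%), Lyve1 with Folr2 but no Timd4 in 387 (31.67%) and Folr2 alone in 121 (9.902%). Timd4 without Lyve1 but with Folr2 was found in 78 (6.383%), Lyve1 with Timd4 in 32 (2.619%), Lyve1 alone in 30 (2.455%) and Timd4 alone in 11 (0.9002%). The share with all 3 was 42.79% and 49.38% in the stroke mice, against 56.57% and 44.26% in the control mice, and the groups overlapped. Timd4 alone was thus the rarest pattern. At these depths a transcript that was missed cannot be told apart from one that was absent.

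The limits of the gate cut through few members at the C1q and GFP sides and through more at the side of the gate genes. A sum of Lyve1, Timd4 and Folr2 of 2 UMIs was held by 125 members and of 3 UMIs by 96, while 194 otherwise fitting barcodes had 1 UMI and stayed outside. The median member had 9 UMIs of these genes and 89 of C1q. Of the members, 1113 had no GFP UMI, 100 had 1 and 4 had 4, while 90 otherwise fitting barcodes had 5 or more. A Cd79a UMI left out 43 barcodes and the S100a8 and S100a9 limit left out 12.

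MHC class II, the peptide receptor for CD4 T cells, varied widely among members. The summed UMIs of H2-Aa, H2-Ab1 and H2-Eb1 had medians of 2.398 and 8.091 per 10000 UMIs in members of the stroke mice, against 1.562 and 8.663 in the control mice. Members at the 90th percentile held 154.5 and 154.1 in the stroke mice, against 161.0 and 180.8 in the control mice. Members without a class II UMI were 39.82% and 32.81% in the stroke mice, against 43.43% and 29.78% in the control mice. The medians of 0-UMI macrophages were 130.1, 188.0, 192.9 and 181.2, so that a typical member was near 0 while members at the 90th percentile came close to a typical 0-UMI macrophage. The groups overlapped in the medians and in the shares without class II, and both 90th percentiles of the stroke mice lay below those of the control mice.

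Within the gate, median class II went the other way from Lyve1 and, with few Folr2-negative members, from Folr2. Members with at least 1 Lyve1 UMI had medians of 1.886, 4.575, 1.457 and 4.77 per 10000 UMIs (345, 272, 91 and 304 barcodes), against 12.1, 55.74, 20.61 and 113.9 in members with none (92, 48, 8 and 62 barcodes). The Lyve1-positive median was the lower in 4 of 4 mice, although those members had more UMIs (medians 5264, 5207, 5884 and 5047, against 4599, 4388, 5413.5 and 4686.5). For Timd4 the medians were 2.933, 4.575, 0.0 and 6.828 with at least 1 UMI, against 2.028, 14.68, 10.4 and 12.28 without, so that stroke mouse 1 went the other way. With at least 1 Folr2 UMI they were 2.375, 6.711, 1.562 and 8.547 (408, 305, 95 and 341 barcodes), against 3.768, 12.97, 16.3 and 75.27 with none (29, 15, 4 and 25 barcodes), the lower in 4 of 4 mice. Cycling was rare, with at least 3 UMIs of cell cycle genes in 5, 3, 0 and 3 members.

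The share of members among heart macrophages did not differ between donor groups beyond the spread between mice. Members made up 50.06% and 46.24% of heart barcodes with at least 5 C1q UMIs in the stroke mice (exact Clopper-Pearson 95% intervals 46.69 to 53.43 and 42.48 to 50.04), against 40.08% and 52.81% in the control mice (33.92 to 46.48 and 49.02 to 56.58). The means were 48.15% ± 2.697 with stroke marrow and 46.447% ± 9.004 with control marrow (SD, n = 2 each). The difference of 1.703 percentage points lay within the spread of the control mice (exact two-sided permutation test, p = 1.0, smallest possible 0.33). Without control mouse 1 the difference was -4.664 points, without control mouse 2 it was 8.069 and without stroke mouse 1 it was -0.205, so its sign rested on single mice.

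Of all heart barcodes past the filters, members made up 26.37% and 23.56% in the stroke mice (24.26 to 28.57 and 21.33 to 25.91), against 13.49% and 23.24% in the control mice (11.1 to 16.17 and 21.17 to 25.4). The means were 24.969% ± 1.986 and 18.363% ± 6.895 (SD, n = 2 each), and the lowest stroke share, 23.56%, lay just over the highest control share, 23.24%. The exact two-sided permutation test gave p = 0.33, the smallest that 2 against 2 mice allow. The difference of 6.606 percentage points was 1.73 without control mouse 1, and 11.481 without control mouse 2. Shares of sorted barcodes do not count cells of the organ, and intervals cover counting error only.

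Gene expression was compared on UMI counts summed per mouse and gate, so that mice and not cells were the replicates. From here on CPM are those after TMM scaling, which evens out differences in RNA composition between sums, and genes were called at an adjusted p under 0.05 in edgeR's quasi-likelihood test with Benjamini-Hochberg adjustment. Nothing in the labels says more of the mice than that they were separate animals. Between donor groups a p weighs the spread between these 4 mice. Between gates of the same mice the fit had a term for the mouse, so a p weighs the spread of within-mouse differences. A lower sum cannot tell fewer expressing cells from less RNA per cell. The first comparison was members over 0-UMI macrophages within each mouse, with the genes of the gate left out. Both sets were cut on measured UMIs of the same barcodes, so genes that go with Lyve1, Timd4 or Folr2 from cell to cell had to differ. The test shows which within-mouse differences exceeded their own spread over the 4 mice. Members had more UMIs per barcode (medians 5132, 5134.5, 5839 and 4992, against 4166, 3691, 4806 and 3755).

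Members had more of the scavenger and coagulation genes of resident macrophages and less of class II genes, Il1b, Ccl3, Ccl4, Ccr2 and Mmp12 than 0-UMI macrophages. Of 7962 genes tested 632 were called higher (7.94%) and 759 lower (9.53%), together 17.5%, and 27.2% had an unadjusted p under 0.05, with a median log2 fold change of 0.0 over all. The list of resident cardiac macrophage genes had 20 of 25 tested genes higher and 0 lower (median log2 fold change 1.16), 4 of them being markers of the label. F13a1, a subunit of the clotting factor that cross-links fibrin, had 3774, 4185, 4729 and 3808 CPM in members, against 515.0, 755.9, 692.4 and 667.9 in 0-UMI macrophages. This was a log2 fold change of 2.65 (SE 0.06, adjusted p = 7.68e-27), with no overlap and the same direction in 4 of 4 mice.

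**Figure D2:**
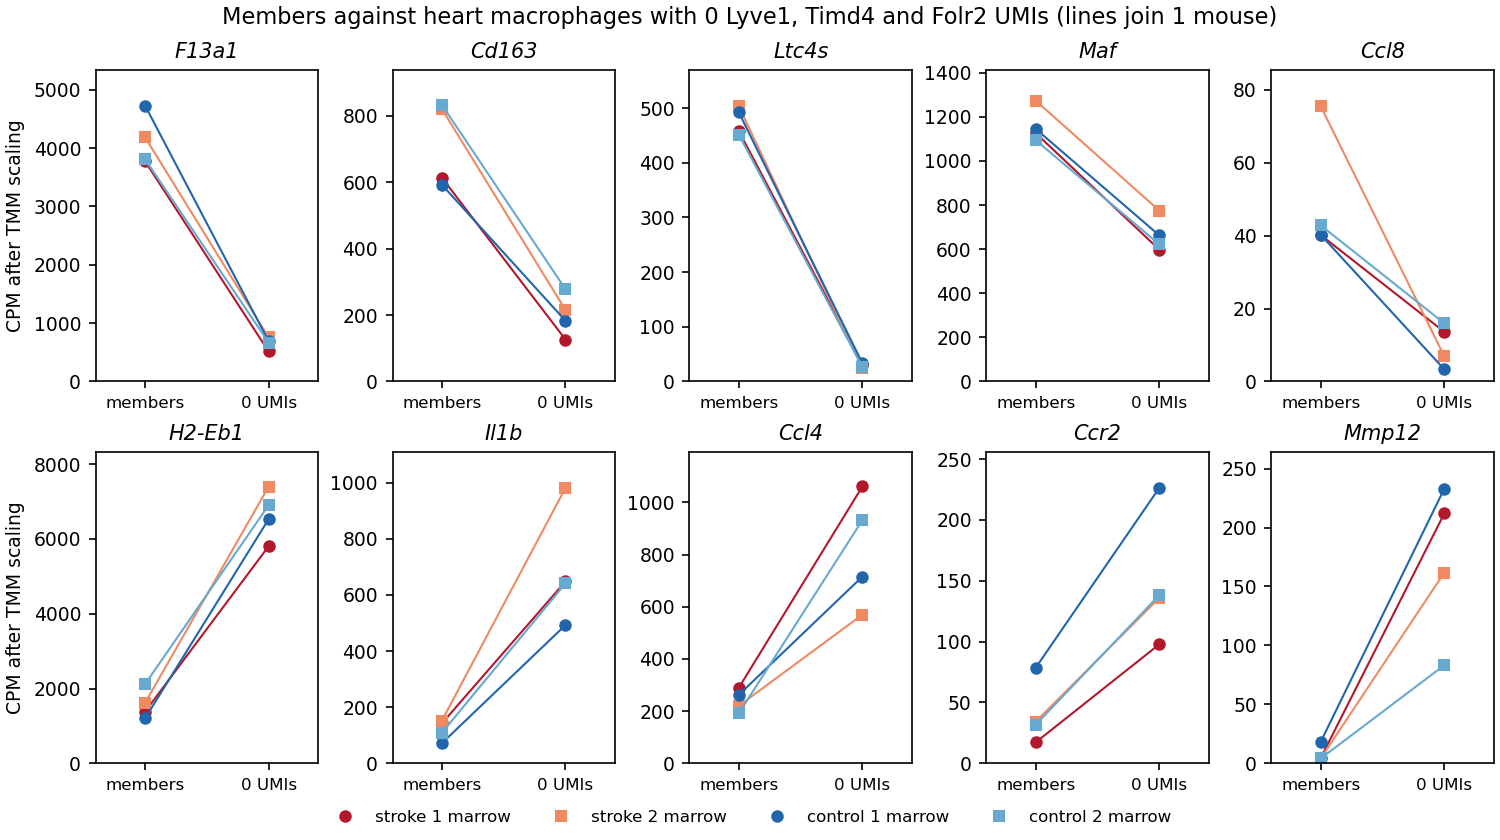
CPM after TMM scaling of 10 genes in members (left) and 0-UMI macrophages (right), with a line joining the 2 values of each of the 4 mice. F13a1, Cd163, Ltc4s, Maf and Ccl8 lie higher in members of every mouse, and H2-Eb1, Il1b, Ccl4, Ccr2 and Mmp12 lower.

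Cd163, the receptor for haemoglobin bound to haptoglobin, had 613.5, 820.5, 592.4 and 832.8 CPM in members, against 126.4, 215.2, 183.1 and 278.1 in 0-UMI macrophages (log2 fold change 1.87, SE 0.09, adjusted p = 8.07e-18). Maf, the transcription factor whose motif is marked above, had 1126, 1273, 1145 and 1094 CPM in members, against 597.8, 774.8, 662.4 and 621.8 (0.81, SE 0.06, adjusted p = 1.38e-12). The mannose receptor gene Mrc1 was 0.81 higher, the scavenger receptor gene Stab1 0.93 and the platelet chemokine gene Pf4 1.05. Klf4, a Krüppel-like transcription factor, had 426.0, 607.9, 523.8 and 572.6 CPM in members, against 247.3, 239.3, 316.2 and 341.9 (0.91, SE 0.09). All of these were apart in every mouse, with no member value at or under a 0-UMI value of the same gene.

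Among the genes named for the size of their difference were 3 receptor genes. Egfr, the epidermal growth factor receptor, had 81.91, 108.5, 105.4 and 76.66 CPM in members, against 8.152, 13.77, 0 and 8.858 in 0-UMI macrophages. Fgfr1, a fibroblast growth factor receptor, had 89.08, 116.4, 122.2 and 107.9 CPM in members, against 5.435, 17.22, 6.657 and 1.772. Ednrb, an endothelin receptor, had 36.31, 53.92, 127.2 and 50.58 CPM in members, against 1.359, 5.165, 13.31 and 1.772, with control mouse 1 the highest in both sets. Their log2 fold changes were 3.37 (SE 0.25), 3.75 (SE 0.25) and 3.76 (SE 0.31), with adjusted p-values of 4.38e-13, 2.84e-14 and 1e-11 in edgeR. Cd209f, a C-type lectin gene, had 231 UMIs in members and 1 in 0-UMI macrophages, a ratio of 79.6 per UMI sequenced with a counting interval of 14.1 to 3160.

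Complement genes were mostly higher in members, with 8 of 12 tested higher and 1, Itgax, lower (median 0.77). C4b, a complement component, had 100.5, 110.3, 97.06 and 105.3 CPM in members, against 5.435, 6.887, 0 and 15.94 in 0-UMI macrophages (log2 fold change 3.72, SE 0.25, adjusted p = 4.87e-14). The scavenger Colec12 had 279.1, 281.3, 336.4 and 297.2 CPM in members, against 32.61, 43.04, 33.29 and 10.63 (3.29, SE 0.16). Iron and haem genes had 7 of 14 higher and 1, the ferritin heavy chain gene Fth1, lower (median 0.34), with the haem breakdown enzyme gene Blvrb at 0.70 (SE 0.08).

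Class II genes were lower in members throughout, with 8 of 8 tested lower and a median of -1.86. H2-Eb1, a class II beta chain, had 1381, 1616, 1203 and 2116 CPM in members, against 5800, 7393, 6524 and 6897 in 0-UMI macrophages (log2 fold change -2.09, SE 0.07, adjusted p = 3.68e-23). Cd74, the invariant chain that guides class II through the cell, had 4475, 5559, 3740 and 6628 CPM in members, against 15510, 19920, 17980 and 18190 (-1.83, SE 0.06). No member sum reached a 0-UMI sum for either gene.

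Interleukin-1 and inflammasome genes had 6 of 12 tested lower and 1, Casp4, higher (median -0.38). Without stroke mouse 1, and likewise without control mouse 2, 3 were lower and 0 higher, and without stroke mouse 2 none was higher. Il1b, the secreted interleukin-1 beta, had 142.7, 152.6, 71.96 and 109.5 CPM in members, against 648.1, 981.4, 492.7 and 641.3 in 0-UMI macrophages (log2 fold change -2.50, SE 0.09, adjusted p = 6.4e-22). Nlrp3, the inflammasome sensor, differed less, with -0.93 (SE 0.13, adjusted p = 1.15e-06) and lower values in 4 of 4 mice. Tnf had 166.8, 172.2, 274.5 and 128.3 CPM in members, against 410.3, 351.2, 243.0 and 318.9, so that control mouse 1 went the other way (-0.99, SE 0.12, adjusted p = 1.24e-07). In DESeq2 the Tnf difference of -0.89 had an adjusted p of 0.0777. Il10, the anti-inflammatory cytokine gene, was not called (-0.63, SE 0.43, adjusted p = 0.374).

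The chemokine list divided evenly, with 8 of 22 tested higher and 8 lower (median -0.06). Higher were Ccl6, Pf4, Ccl24, Ccl9, Cxcl13, Ccl7, Ccl8 and the receptor gene Ccr1, and lower were Ccl4, Ccl3, Cxcl2, Cxcl16, Cxcl14, Cxcl1 and the receptor genes Ccr2 and Cx3cr1. The CC chemokine gene Ccl8 had 40.11, 75.37, 40.16 and 42.76 CPM in members, against 13.59, 6.887, 3.329 and 15.94 in 0-UMI macrophages (2.16, SE 0.28, adjusted p = 2.23e-07). Ccl6 had 1336, 1897, 1351 and 1545 CPM in members, against 422.6, 492.4, 496.0 and 423.4 (1.75, SE 0.07). The CC chemokine gene Ccl4 had 290.1, 220.6, 262.7 and 191.9 CPM in members, against 1061, 569.9, 715.7 and 931.9 (-1.79, SE 0.09, adjusted p = 6.03e-17). Cxcl2, which draws neutrophils, was -0.84 (SE 0.09), and Ccl2, the main ligand of CCR2, was not called (0.24, SE 0.12, adjusted p = 0.2).

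Ccr2 itself had 17.31, 34.32, 78.66 and 31.81 CPM in members, against 97.83, 136.0, 226.4 and 138.2 in 0-UMI macrophages (-2.03, SE 0.15, adjusted p = 2.53e-13). Mmp12, the macrophage elastase, had 4.644, 4.289, 18.41 and 4.172 CPM in members, against 212.0, 161.8, 233.0 and 83.27 (-4.78, SE 0.21, adjusted p = 2.28e-19) and far under the 0-UMI values in every mouse. Rgs1, a brake on chemokine receptor signals, was -2.64 (SE 0.10), and the osteopontin gene Spp1 -2.73 (SE 0.47). Of the matrix list 5 of 10 were lower and 3 (Timp2, Ecm1 and Mmp9) higher (median -0.86). Summed markers of classical monocytes stood at 54.58, 109.8, 228.2 and 74.25 plain CPM in members, against 216.8, 177.2, 420.7 and 273.3 in 0-UMI macrophages, and summed cardiomyocyte markers at 138.7, 128.8, 121.5 and 187.2, against 301.6, 231.0, 443.0 and 347.1. Of the monocyte list 4 of 5 tested genes were lower in members and of the cardiomyocyte list 6 of 8, with 0 higher in both. In members Ly6c2 was at 0 in stroke mouse 2, and Chil3 and Vcan in control mouse 1, whereas every cardiomyocyte marker was found in every mouse's members. Their part in these differences was not tested. In 0-UMI macrophages of stroke mouse 2 the 8 erythroid markers together reached 7959 plain CPM, against 17.22 in its members.

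Immediate early genes, which respond within minutes to stimulation or to tissue dissociation, were lower in members for 14 of 22 and higher for 2, the Krüppel-like factors Klf4 and Klf2 (median -0.40). Fos was lower in 4 of 4 mice (-0.55, SE 0.05), and so was Jun (-0.26, SE 0.05). Feedback inhibitors of inflammatory signals had 6 of 14 lower and 0 higher (median -0.43), with Nfkbia at -0.63 (SE 0.06). Cell cycle genes had 7 of 12 lower and 0 higher (median -0.48), among them Top2a, the topoisomerase of dividing cells, at -2.23 (SE 0.39) and lower in 3 of 4 mice. Cholesterol synthesis genes had 6 of 12 lower and 0 higher (median -0.66), and 3 lower without stroke mouse 1.

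Genes for the uptake of dying cells had 4 of 12 higher (Gas6, Stab1, Pros1 and Cd36) and 3 lower (Axl, Itgav and Itgb5), with a median of 0.0. Mertk, the receptor that engulfs dying cardiomyocyte fragments, had 240.7, 297.8, 309.6 and 262.3 CPM in members, against 279.9, 313.4, 336.2 and 297.6 in 0-UMI macrophages (-0.15, SE 0.08, adjusted p = 0.25). Igf1, a growth factor for cardiomyocytes, was not called either (0.24, SE 0.09, adjusted p = 0.0594). Interferon response genes had 4 of 30 higher and 2 lower (median 0.01), and 2 higher and 0 lower without stroke mouse 1. Lysosome and lipid genes had 8 of 27 higher and 6 lower (median -0.11), with the lipid carrier gene Apoe at 22450, 24340, 19660 and 24140 CPM in members, against 18100, 21210, 15130 and 20970 (0.27, SE 0.04, adjusted p = 1.17e-06, and 0.124 with no term for the mouse). Cytokine genes had 1 of 8 higher and 5 lower (median -0.71), and growth factor genes 5 of 15 higher and 4 lower (median 0.24), with 2 lower without control mouse 1 or without control mouse 2. Macrophage transcription factors had 4 of 21 higher (Maf, Zeb2 and Tfec among them) and 5 lower (median 0.10), oxidative phosphorylation 4 of 23 higher and 0 lower (median 0.13), glycolysis 0 higher and 1 of 18 lower (median -0.08) and heat shock 1 of 14 higher and 2 lower (median -0.07). Without stroke mouse 1 oxidative phosphorylation had 2 higher. The 1 higher cytokine gene, Tnfsf12, was not called without stroke mouse 1, stroke mouse 2 or control mouse 2, and the 1 lower glycolysis gene, Gapdh, not without stroke mouse 2. Heat shock had 1 lower without stroke mouse 1, stroke mouse 2 or control mouse 1, and iron and haem genes had 2 lower without control mouse 1. With no term for the mouse in the fit, 495 genes in place of 759 were lower.

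The second comparison set members against GFP-rich heart macrophages of the same mice. GFP-rich macrophages were deeper (medians 9910.5, 9440, 11801.5 and 8279 UMIs, against 5132, 5134.5, 5839 and 4992 in members) and fewer (78, 45, 34 and 71 barcodes). In control mouse 1 most of their GFP UMIs were kgfp (474, against 154 of agfp), and in the other mice all were agfp. Members had more of the resident genes, of Igf1, Apoe and Mertk, and less of the monocyte genes Ly6c2 and Chil3. Summed markers of nonclassical monocytes stood at 192.5, 176.9, 159.3 and 212.6 plain CPM in members, against 1275, 976.0, 777.8 and 1447 in GFP-rich macrophages. Of 8113 genes tested 942 were higher (11.6%) and 1160 lower (14.3%), together 25.9%, and 34.7% had an unadjusted p under 0.05, with a median log2 fold change of 0.01 over all. The resident list had 24 of 25 higher and 0 lower (median 1.31).

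**Figure D3:**
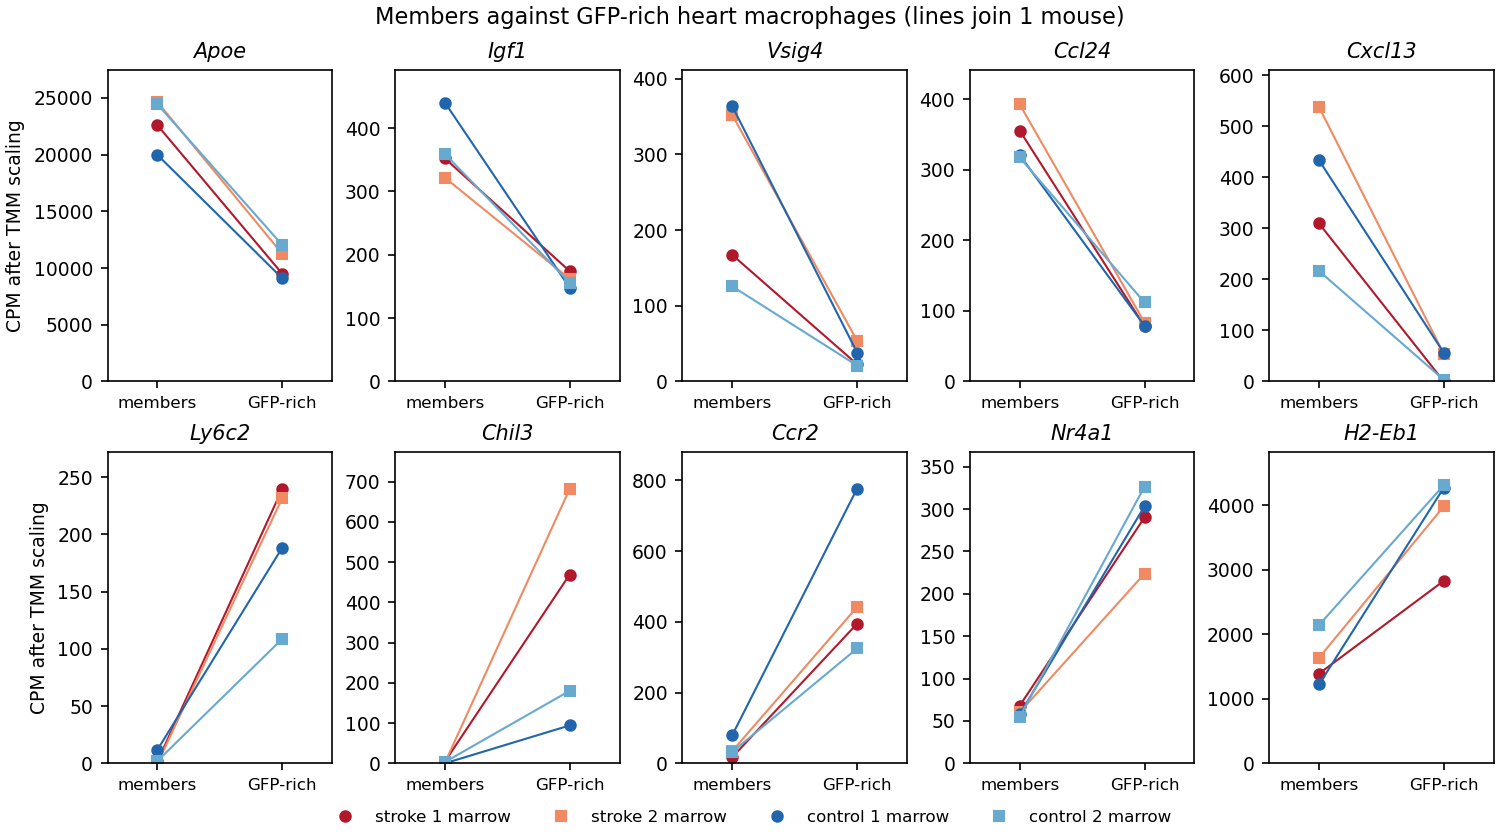
CPM after TMM scaling of 10 genes in members (left) and GFP-rich macrophages (right), with a line joining the 2 values of each of the 4 mice. Apoe, Igf1, Vsig4, Ccl24 and Cxcl13 lie higher in members of every mouse, and Ly6c2, Chil3, Ccr2, Nr4a1 and H2-Eb1 lower.

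Cxcl13, which attracts B cells, had 309.6, 537.5, 433.4 and 216.5 CPM in members, against 0, 53.93, 56.05 and 3.248 in GFP-rich macrophages (log2 fold change 4.09, SE 0.29, adjusted p = 1.14e-10). Vsig4, a complement receptor of tissue macrophages, had 167.3, 352.1, 363.7 and 125.7 CPM in members, against 22.71, 53.93, 38.21 and 21.11 (2.86, SE 0.15, adjusted p = 8.21e-13). Ccl24, an eosinophil chemokine, had 355.9, 393.0, 321.2 and 317.8 CPM in members, against 78.23, 83.6, 78.97 and 112.1 (1.96, SE 0.13). None of these overlapped between the sets. The C-type lectin gene Cd207 (1.97, SE 0.26) and the iron exporter gene Slc40a1 (1.95, SE 0.24) followed.

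Igf1 had 352.1, 321.7, 440.2 and 359.0 CPM in members, against 174.1, 161.8, 147.8 and 155.9 in GFP-rich macrophages (1.18, SE 0.11, adjusted p = 9.4e-09). Mertk had 242.1, 301.3, 314.4 and 265.6 CPM in members, against 119.9, 140.2, 101.9 and 144.5 (1.11, SE 0.12, adjusted p = 1.17e-07). Apoe had 22590, 24630, 19970 and 24440 CPM in members, against 9488, 11250, 9092 and 12030 (1.13, SE 0.05, adjusted p = 1.13e-14). All 3 were above the GFP-rich values of all 4 mice, whereas beside 0-UMI macrophages Mertk and Igf1 were not called and Apoe was 0.27 higher. Whether the 2 comparisons differ was not tested.

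Monocyte markers were lower in members. All 10 classical monocyte markers tested were lower (median -5.02), and so were all 10 nonclassical ones (median -3.26). NK cell markers had 7 of 8 tested lower and 0 higher, and type 2 dendritic cell markers 7 of 10 lower and 2 higher. A gene near 0 in members could pass the count filter through the GFP-rich sums alone, and then had to be lower in members. Beside 0-UMI macrophages, 5 classical, 6 nonclassical, 1 NK cell and 6 dendritic cell markers passed the filter. The counts of lower markers are thus a description and no test. A Scrublet doublet score of at most 0.25 kept 197 of the 228 GFP-rich macrophages and 1219 of the 1222 members. A heart hashtag share of at least 95% kept 188 and 1212. The part of mixed barcodes in these differences was not tested. Ly6c2, the surface antigen of classical monocytes, had 1.699, 0, 11.9 and 2.112 CPM in members, against 239.8, 231.9, 188.5 and 108.8 in GFP-rich macrophages (-6.27, SE 0.30, adjusted p = 1.61e-13). Chil3, a chitinase-like protein of young monocytes, had 4.247, 1.24, 0 and 3.168 CPM in members, against 469.4, 682.3, 94.26 and 180.3 (-7.10, SE 0.24). Ccr2 had 17.41, 34.71, 79.87 and 32.21 CPM in members, against 395.0, 442.2, 777.0 and 324.8 (-3.69, SE 0.15). Members thus sat near 0 for the first 2 genes, and control mouse 1 was the highest of the members for Ly6c2 and Ccr2. Thbs1, encoding the matrix protein thrombospondin 1, had 3 UMIs in members and 159 in GFP-rich macrophages, a ratio of 0.0063 per UMI sequenced with a counting interval of 0.00129 to 0.0187.

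Class II was lower here too, with 10 of 10 tested lower (median -1.22). H2-Eb1 had 1390, 1635, 1222 and 2142 CPM in members, against 2829, 3983, 4272 and 4312 in GFP-rich macrophages (-1.27, SE 0.09, adjusted p = 5.54e-11). Il1b had 143.6, 154.4, 73.08 and 110.9 CPM in members, against 646.1, 741.6, 850.9 and 687.0 (-2.54, SE 0.13, adjusted p = 4.05e-13). Cxcl2, which was lower beside 0-UMI macrophages, was not called here (-0.10, SE 0.07, adjusted p = 0.355). Nr4a1, a transcription factor of nonclassical monocytes, had 67.96, 60.13, 57.78 and 54.91 CPM in members, against 290.2, 223.8, 303.2 and 326.4 (-2.23, SE 0.13, adjusted p = 2.34e-12). The members' values of Nr4a1 lay within a narrow range and far from every GFP-rich value.

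By list, chemokines had 11 of 21 higher and 6 lower (median 0.41), iron and haem genes 8 of 15 higher and 1, Hp, lower (median 0.46), and lysosome and lipid genes 12 of 27 higher and 7 lower (median 0.18), with 4 lower without control mouse 2. Growth factor genes had 6 of 15 higher (Igf1, Nrp1, Pdgfc, Ang, Ccn1 and Nrp2) and 1, Tgfb1, lower (median 0.48), and 2 lower without stroke mouse 1. Complement had 6 of 12 higher and 2 lower (median 0.42), dying-cell uptake 5 of 13 higher and 3 lower (median 0.06) and transcription factors 7 of 23 higher and 6 lower (median -0.04). Feedback inhibitors had 11 of 15 lower (median -0.70), glycolysis genes 10 of 18 lower (median -0.45) and cell cycle genes 9 of 16 lower (median -0.66), with 0 higher in each, apart from 1 glycolysis gene without control mouse 1. Cholesterol synthesis had 8 of 13 lower and 0 higher (median -0.78), with 5 lower without stroke mouse 2 and 3 without control mouse 2. Interleukin-1 genes had 2 of 13 higher and 8 lower (median -0.51), with 5 lower without control mouse 2, matrix genes 3 of 12 higher and 7 lower (median -2.04), cytokines 1 of 10 higher and 5 lower (median -0.61) and interferon genes 3 of 32 higher and 8 lower (median -0.23). Immediate early genes had 4 of 23 higher and 8 lower (median -0.16), with 2 higher without control mouse 2, heat shock genes 1 of 14 higher and 2 lower (median -0.09) and oxidative phosphorylation genes 1 of 23 higher and 2 lower (median -0.05). Of these small counts, interleukin-1 had 1 higher without stroke mouse 1, stroke mouse 2 or control mouse 2, and cytokines 0 higher without stroke mouse 1 or control mouse 2. Heat shock had 0 higher without stroke mouse 1 and 1 lower without control mouse 2. Oxidative phosphorylation had 0 higher without stroke mouse 1, stroke mouse 2 or control mouse 2, and 1 lower without stroke mouse 1, stroke mouse 2 or control mouse 1, and 0 without control mouse 2. Summed classical monocyte markers stood at 2993, 2854, 2575 and 1914 plain CPM in GFP-rich macrophages, with the members' values given above and none of the 10 markers at 0 in any mouse. Their part was not tested.

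Within the gate, members with at least 1 Timd4 UMI (684) were set against members with none (538) in the same mice. Few genes differed: of 8657 tested, 14 were higher (0.162%) and 19 lower (0.219%) in Timd4-positive members, together 0.381%, with 627 (7.24%) at an unadjusted p under 0.05. Timd4-positive members had more UMIs (medians 5600, 5380, 5894 and 5289, against 4621, 4814, 5754 and 4750). With the sum of the gate genes read after thinning to 2000 UMIs, 3 genes were higher and 9 lower. That setting kept the full counts and the Timd4 split, so depth was not made equal. Its medians were 5663, 5484, 5949 and 5336, against 4621, 5026, 5371.5 and 4623. Without control mouse 2, 3 were higher and 5 lower, and with no term for the mouse in the fit 0 were higher and 2 lower, namely Nes and Glipr1.

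F13a1 had 4392, 4603, 5630 and 4173 CPM in Timd4-positive members, against 2971, 3533, 3249 and 3363 in Timd4-negative members (log2 fold change 0.50, SE 0.06, adjusted p = 0.000119). The CC chemokine gene Ccl6 had 1542, 2040, 1627 and 1748 CPM in Timd4-positive members, against 1069, 1682, 892.9 and 1289 (0.50, SE 0.07, adjusted p = 0.000421). Hmox1, which breaks down haem, had 379.0, 240.5, 293.2 and 302.8 CPM in Timd4-positive members, against 210.6, 230.9, 149.6 and 189.6 (0.61, SE 0.11, adjusted p = 0.00574). F13a1 did not overlap and Ccl6 was higher within 4 of 4 mice, while the Hmox1 call was lost without stroke mouse 1 (adjusted p = 0.166) and without control mouse 2 (0.177). Vsig4 was 0.82 higher (SE 0.16, adjusted p = 0.0106), with the opposite direction in control mouse 1 and the call lost without stroke mouse 1 (0.18), stroke mouse 2 (0.271) or control mouse 2 (0.173). Fcna, a marker of the label, had 149.5, 190.3, 187.6 and 158.2 CPM in Timd4-positive members, against 92.7, 133.4, 98.18 and 70.65.

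**Figure D4:**
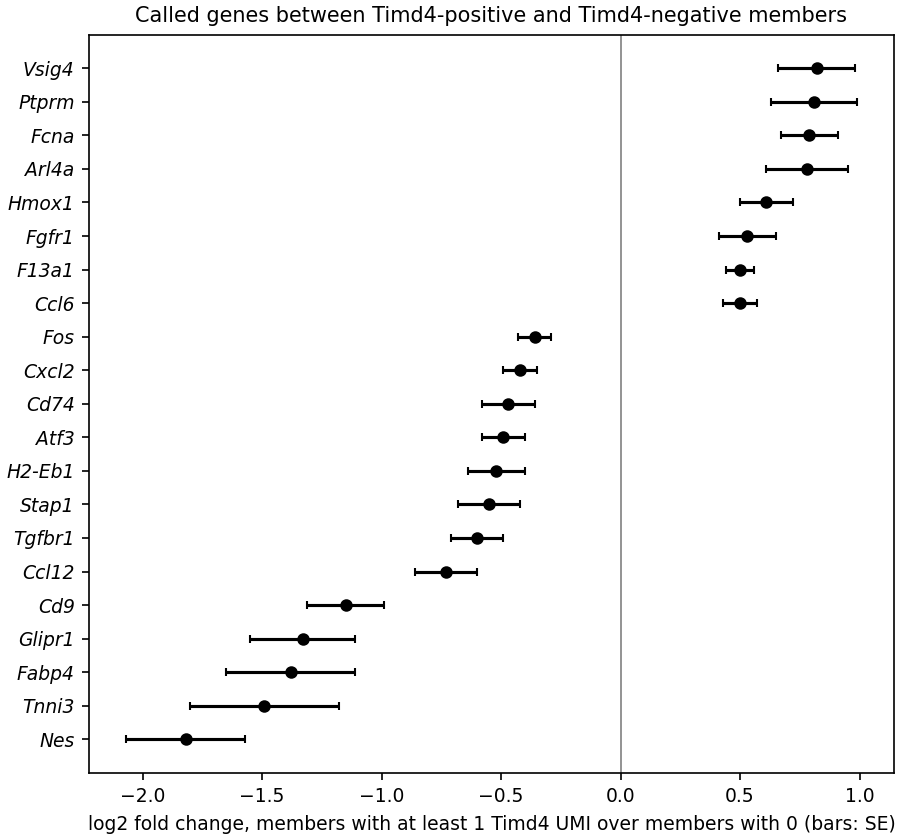
Log2 fold changes with standard errors of named genes called between Timd4-positive and Timd4-negative members (8 sums of 4 mice), with Ccl5 and Gzma left off because single barcodes hold most of their UMIs. F13a1 and Ccl6 lie at 0.50 on the right, and Nes at -1.82 is the farthest on the left.

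Timd4-negative members had more Cd9, Nes and Glipr1. Cd9, a membrane tetraspanin, had 47.65, 57.96, 34.34 and 32.73 CPM in Timd4-positive members, against 138.0, 97.51, 60.78 and 69.41 in Timd4-negative members (-1.15, SE 0.16, adjusted p = 0.000169). Nes, an intermediate filament of progenitor cells, had 23.46, 26.08, 0 and 16.36 CPM in Timd4-positive members, against 55.42, 106.1, 79.48 and 52.06 (-1.82, SE 0.25, adjusted p = 0.000169). Glipr1 had 19.06, 28.98, 13.21 and 22.73 CPM in Timd4-positive members, against 60.45, 49.61, 84.15 and 45.86 (-1.33, SE 0.22, adjusted p = 0.00216). Nes and Glipr1 did not overlap, and Cd9 was lower within 4 of 4 mice. With the thinned gate, which did not make depth equal, the Nes difference of -1.30 had an adjusted p of 0.0865 in edgeR. The Cd9 difference of -0.77 had one of 0.339.

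The stress factor gene Atf3 had 862.1, 1092, 586.5 and 789.2 CPM in Timd4-positive members, against 1061, 1324, 1225 and 1132 in Timd4-negative members (-0.49, SE 0.09, adjusted p = 0.0037). Cxcl2 had 1440, 1519, 1154 and 889.2 CPM in Timd4-positive members, against 2103, 1923, 1253 and 1349 (-0.42, SE 0.07, adjusted p = 0.00216), and Fos was -0.36 (SE 0.07, adjusted p = 0.00499). These 3 calls were lost without control mouse 2, with adjusted p-values of 0.12, 0.168 and 0.0872. H2-Eb1 had 1427, 1413, 752.9 and 1810 CPM in Timd4-positive members, against 1335, 2008, 2029 and 2562 (-0.52, SE 0.12, adjusted p = 0.0372), with stroke mouse 1 the other way. That call was lost without stroke mouse 2 (0.279), control mouse 1 (0.118) or control mouse 2 (0.378), and Cd74 (-0.47) behaved alike with 0.262, 0.115 and 0.177.

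Markers of other cells were among the lower genes, with 1 of 8 cardiomyocyte markers (Tnni3, -1.49), 1 of 3 fibroblast markers (Dcn) and the 1 tested endothelial marker (Fabp4, -1.38) lower in Timd4-positive members. Fold changes were below 0 for 7 of the 8 cardiomyocyte markers (median -0.96) and for 3 of 3 fibroblast markers (median -2.52). Their part was not tested. By list, the resident genes had 3 of 25 higher and 0 lower (median 0.22, and 1 higher without control mouse 2), class II 0 higher and 2 of 8 lower (median -0.41), and immediate early genes 0 higher and 3 of 23 lower (Atf3, Fos and Ier3, median -0.26, and 0 lower without control mouse 2). Class II had 4 lower without stroke mouse 1 and 0 without any of the other mice. Interferon genes had no call, although 25 of 29 fold changes were positive (median 0.21, against 0.0 over all genes). Chemokines had 2 of 21 higher (Ccl6 and Ccl5) and 2 lower (median -0.09), with 1 lower without stroke mouse 1 and 0 without control mouse 2. Ccl5 had 319.7 CPM in Timd4-positive and 4.675 in Timd4-negative members of control mouse 1, and its call was lost without that mouse (1.34). A single barcode held 98.4% of the Ccl5 UMIs and 98.8% of the Gzma UMIs of that mouse's members, and both genes are among the 14 called higher. Igf1 (-0.16, SE 0.09), Mertk (-0.06, SE 0.09), Il1b (0.00, SE 0.14) and Maf (0.15, SE 0.07) were not called.

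Stroke against control marrow, the study's own question, was tested in the members over 4 sums. No gene was called among 9562 (0.0%), in edgeR or in DESeq2, and 350 (3.66%) had an unadjusted p under 0.05 in edgeR. The values of the 2 groups did not overlap for 1566 genes with stroke above control (16.4%) and for 1562 with stroke below control (16.3%). With control mouse 1 left out 21 genes were higher and 19 lower, and with control mouse 2 left out 41 were higher and 44 lower; without stroke mouse 2, 1 was higher. The calls without control mouse 2 included the sex-linked Xist and Ddx3y, for which control mouse 1 was then the lone control.

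The genes that define the members had close values in both groups. Because the gate selects on Lyve1, Timd4 and Folr2, their levels in members are a description and no test of a donor effect. Lyve1 had 1016 and 1250 CPM in the stroke mice, against 1185 and 1058 in the control mice (log2 fold change 0.02, SE 0.14). Folr2 had 812.8 and 869.6 CPM, against 827.3 and 831.2 (0.02, SE 0.13). Timd4 had 201.1 and 212.3 CPM, against 193.7 and 180.8 (0.15, SE 0.14), and Cd163 had 605.0 and 807.5 CPM, against 581.1 and 817.9 (0.0, SE 0.18). The groups overlapped for 3 of these 4 genes, Timd4 being the exception, as for 16.4% of all genes in that direction. The resident list had 10 of 25 fold changes above 0 (median -0.09), with 0 genes apart upwards and 9 apart downwards, beside 16.3% of all genes apart downwards. Gas6, a marker of the label on that list, was apart downwards at 438.9 and 375.1 CPM in the stroke mice, against 482.6 and 442.0 in the control mice (-0.18, SE 0.14, not called).

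**Figure D5:**
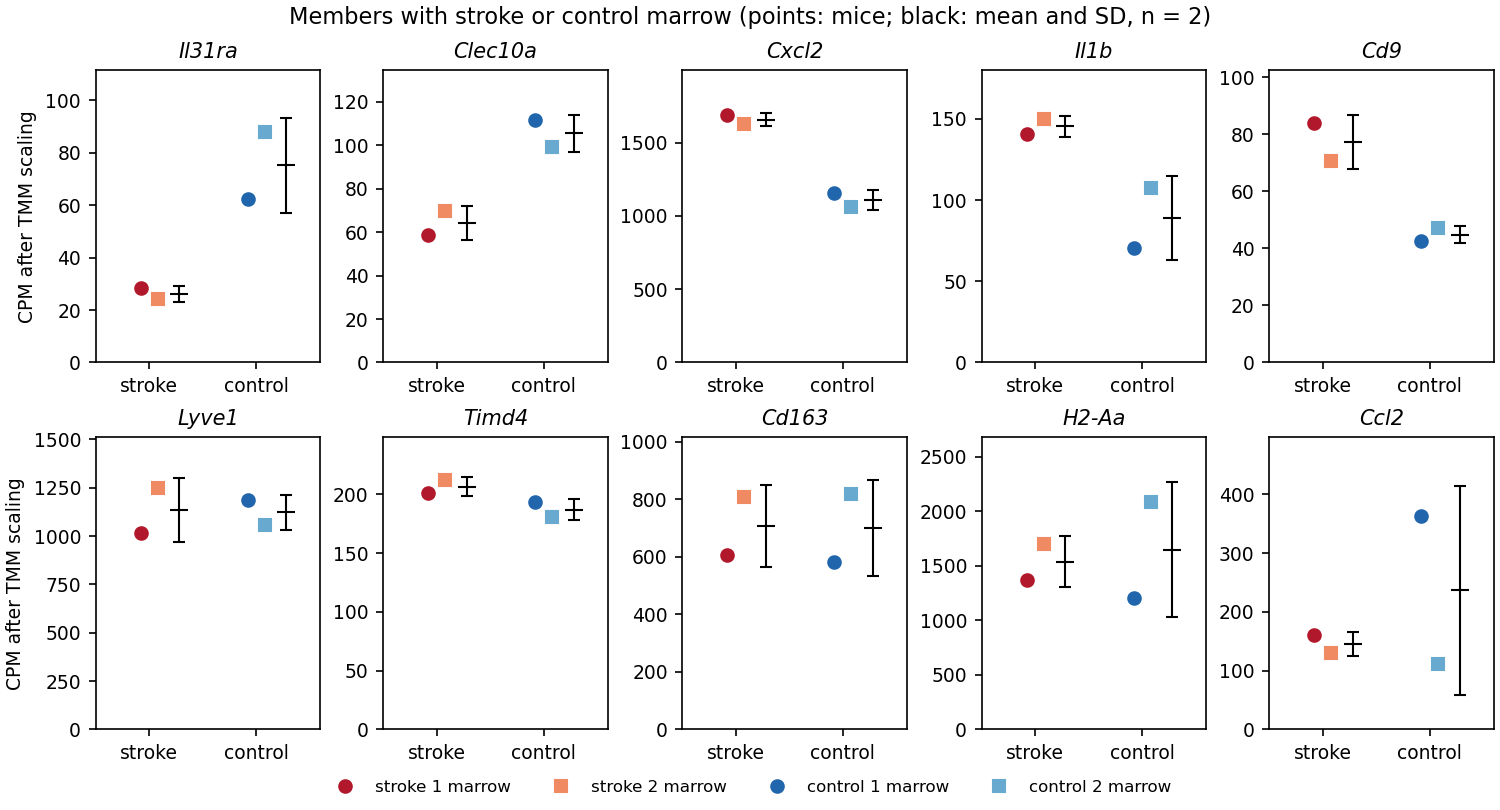
CPM after TMM scaling of 10 genes in members of mice with stroke marrow (left) and control marrow (right), with points for mice and black marks for the mean and SD (n = 2). The stroke values of Il31ra and Clec10a lie below and those of Cxcl2, Il1b, Cd9 and Timd4 above the control values, while Lyve1, Cd163, H2-Aa and Ccl2 overlap, and none of the 10 is called.

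Il31ra, a receptor chain for interleukin-31 (chromosome 13, 112519898 to 112594360, minus strand, GRCm38), had the smallest adjusted p. It had 28.31 and 24.12 CPM in the stroke mice, against 62.38 and 88.09 in the control mice (log2 fold change -1.57, SE 0.22, adjusted p = 0.068), and the groups did not overlap. With every mouse kept, edgeR's adjusted p for Il31ra was 0.547 with the replicate number as a block. It was 0.00307 with GFP transcripts at 0, 0.013 with the thinned gate and 0.0368 with at least 3 gate UMIs. With at least 95% heart hashtag it was 0.0382, and with no marker UMI of other cells 0.0381. The gene was not called with C1q of at least 10 UMIs, at least 500 genes, the Scrublet limit, other size factors or DESeq2. Its difference was -1.73 without control mouse 1 and -1.23 without control mouse 2, and it stayed negative without either stroke mouse. The C-type lectin gene Clec10a had 58.71 and 69.95 CPM in the stroke mice, against 111.6 and 99.36 in the control mice (-0.70, SE 0.16, adjusted p = 0.798). It too was apart and not called.

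Among genes with higher values in the stroke mice, Cxcl2 had 1687 and 1626 CPM, against 1157 and 1058 in the control mice (0.58, SE 0.13, adjusted p = 0.798, and 0.0102 without control mouse 1). Il1b had 140.7 and 150.2 CPM in the stroke mice, against 70.59 and 107.6 in the control mice (0.62, SE 0.18, adjusted p = 1.0). The Il1b difference was 1.05 without control mouse 2 and 0.43 without control mouse 1. In members with no UMI of Cd3d, Cd3e, Nkg7, Ms4a1, Cdh5, Col1a1, Myh6 or Retnlg, markers of other cells, it was 0.24. Cd9 had 84.11 and 70.56 CPM in the stroke mice, against 42.68 and 47.12 in the control mice (0.77, SE 0.18, adjusted p = 0.798). These 3 genes were apart between the groups without reaching the threshold. Lpl, the lipase that releases fatty acids from lipoproteins, had 339.8 and 242.4 CPM in the stroke mice, against 95.21 and 240.2 in the control mice (0.69, SE 0.28, adjusted p = 1.0). Control mouse 1 alone was low, and the Lpl difference was 0.28 without it (adjusted p = 0.999) and 1.63 without control mouse 2 (adjusted p = 1.11e-08).

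Of other genes, most overlapped. H2-Aa had 1371 and 1701 CPM in the stroke mice, against 1208 and 2087 in the control mice (-0.11, SE 0.21), and Tnf had 164.5 and 169.5 CPM, against 269.2 and 126.0 (-0.14, SE 0.26). Ccl2 had 159.9 and 130.3 CPM in the stroke mice, against 362.8 and 111.1 in the control mice (-0.57, SE 0.37), with control mouse 1 far above the rest. Its difference was 0.39 without that mouse (adjusted p = 0.999) and -1.30 without control mouse 2 (adjusted p = 1.11e-08), and that of Tnf 0.40 and -0.68. Nlrp3 had 92.02 and 91.66 CPM, against 98.49 and 87.58 (0.01, SE 0.15). Igf1 had 345.2 and 313.0 CPM in the stroke mice, against 425.2 and 348.3 in the control mice (-0.22, SE 0.15, adjusted p = 1.0), apart and not called. Gzma and Ccl5, genes of cytotoxic lymphocytes, were high in control mouse 1 (275.8 and 200.3 CPM), where a single barcode held 98.8% and 98.4% of their UMIs.

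No gene of any list was called, beside a median log2 fold change of 0.0 over all genes and a share of 16.4% apart upwards and 16.3% apart downwards. Chemokines had 14 of 21 fold changes above 0 (median 0.20), with 4 apart upwards and 1 downwards. Without control mouse 1 the differences were 0.65 for Cxcl2, 1.34 for Cxcl1, 0.97 for Cxcl13, 0.83 for Ccl7 and 0.84 for Ccl12. Without control mouse 2 they were 7.55 for Cxcl14, -1.65 for Ccr2 and -4.03 for Ccl5. Cxcl9 was 9.13 without control mouse 1 and 8.77 without control mouse 2. Most Cxcl9 UMIs in members of stroke mouse 1, and most Ccl5 UMIs in those of control mouse 1, lay in single barcodes. Interferon genes had 24 of 33 above 0 (median 0.17), with 8 apart upwards and 2 downwards, among them Ifi27l2a at 3264 and 2162 CPM in the stroke mice, against 1285 and 1978 in the control mice (0.73, adjusted p = 1.0). The Ifi27l2a difference was 0.46 without control mouse 1 (adjusted p = 0.186) and 1.09 without control mouse 2 (adjusted p = 2.11e-09). Cholesterol synthesis genes had 12 of 15 above 0 (median 0.23), with 4 apart upwards and 1 downwards, and oxidative phosphorylation genes 19 of 23 (median 0.07), with 7 and 1. Class II genes had 1 of 8 above 0 (median -0.12), with 1 apart upwards and 0 downwards. Medians of the pathway lists not named here or above lay between -0.07 and 0.16. Summed NK cell markers stood at 7.386 and 4.75 plain CPM in the stroke mice, where 4 and 6 of 10 were at 0, against 431.8 and 39.16 in the control mice, where 0 and 2 were. Ncr1 and Prf1 were among those at 0 in both stroke mice. Summed neutrophil markers stood at 63.19 and 77.18, against 133.0 and 77.81, and classical monocyte markers at 54.58 and 109.8, against 228.2 and 74.25. Their part was not tested.

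Whether the donor difference was particular to the members was asked with the interaction of donor group and gate over 8 sums (members and 0-UMI macrophages). Of 7962 genes 2 were called higher (0.0251%) and 1 lower (0.0126%), together 0.0377%, with 356 (4.47%) at an unadjusted p under 0.05. Without control mouse 2, 7 were higher and 9 lower. The 3 genes were Retnla, a secreted protein of alternatively activated macrophages, Cxcl9, an interferon-gamma-induced chemokine, and Gzma, a protease of cytotoxic lymphocytes, and most of the Cxcl9 and Gzma UMIs lay in single barcodes. Il1b (0.19, SE 0.19), Cxcl2 (-0.31, SE 0.17), Cd163 (0.47, SE 0.18) and H2-Aa (-0.02, SE 0.14) were not called, each with an adjusted p of 1.0. A donor effect that belongs to the members was thus not detectable for these genes with 2 mice against 2.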

How the data were processed

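Single-cell RNA libraries of 4 mice were made with 10x 3' v3.1 chemistry and feature barcoding, per the labels' protocols. Cell Ranger 7.1.0 and the mm10 genome are named in the submitters' processing notes. The deposited values are UMI counts of 32285 genes and of the hashtags, in barcodes the authors' pipeline had kept, with the libraries joined in 1 matrix. Doublet removal before deposit is not stated. Scrublet scores above 0.25 marked 2.41% of all barcodes and 3 members, which were kept except in an alternative.

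Barcodes needed at least 200 genes, at most 10% mitochondrial UMIs and at least 10 hashtag UMIs, of which at least 80% were of the heart hashtag. Counts were summed per mouse and gate (at least 20 barcodes), filtered with filterByExpr, scaled with TMM and tested with edgeR 4.0.16 (quasi-likelihood, Benjamini-Hochberg adjustment, threshold 0.05) in R 4.3.3. The mouse was a block wherever gates of the same mice were compared, and genes of the gates were left out of those tests and of the interaction. Barcodes were handled with scanpy 1.11.5 in Python 3.11.15. The code was tested on simulated data. Alternatives were DESeq2 1.42.0, other size factors, no filter, each mouse left out, 8 other gate settings and fits with and without blocks. The setting with no marker UMI of other cells checked only Cd3d, Cd3e, Nkg7, Ms4a1, Cdh5, Col1a1, Myh6 and Retnlg, so other markers could remain.

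The members and lists were chosen with earlier results of these data known, and lists were taken over from earlier work on them. Genes named with values are a fixed set plus those with the largest called changes at a mean of at least 20 CPM. Genes named only as called members of a list, the receptor genes, and those named for 1 mouse or 1 barcode were named after their values were seen. Counting intervals cover counting error only, since cells of 1 mouse are not replicates. Promoter windows are from RefSeq (GRCm38.p6).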

Additional observations from a re-analysis of the deposited data

Results flagged for a closer look

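Of the genes tested for a donor effect that differs between members and macrophages without Lyve1, Timd4 and Folr2 UMIs, 3 passed the threshold of edgeR's interaction test. Retnla had a difference of 1.37 (log2, SE 0.27, adjusted p = 0.0345). It had 392.6 and 830.9 CPM in members of the stroke mice, against 241.0 and 379.6 in the control mice, and in 0-UMI macrophages it had 375.0 and 289.3 with stroke marrow, against 213.0 and 714.0 with control marrow. In 0-UMI macrophages a single barcode held 100% of the Retnla UMIs of stroke mouse 1 and of control mouse 2. The call was lost in 11 of the 16 alternatives, among them those without stroke mouse 2 (0.65, adjusted p = 1.0), control mouse 1 (1.67, 0.119) and control mouse 2 (0.60, 0.777).

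Cxcl9 had a fitted difference of 13.18 (adjusted p = 5.61e-08), a value that depends on the prior count and is no bound. It had 64.17 and 0.613 CPM in members of the stroke mice, against 0 and 0 in the control mice, and 1.359 and 0 in 0-UMI macrophages of the stroke mice, against 0 and 33.66 in the control mice. A single barcode held 97.4% of its 152 UMIs in members of stroke mouse 1 and another 89.5% of its 19 UMIs in 0-UMI macrophages of control mouse 2. The call was lost without either of these mice.

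Gzma had a difference of -7.83 (adjusted p = 2.24e-08). It had 5.489 and 1.838 CPM in members of the stroke mice, against 281.1 and 19.29 in the control mice, and 110.1 and 3.444 in 0-UMI macrophages of the stroke mice, against 0 and 10.63 in the control mice. A single barcode held 98.8% of its 168 UMIs in members of control mouse 1 and another 96.3% of its 81 UMIs in 0-UMI macrophages of stroke mouse 1. The call was lost without stroke mouse 1, where the difference was -4.65.

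The transcript kgfp, which the gate sums with agfp, had 474 UMIs in the 34 GFP-rich heart macrophages of control mouse 1 and 0 in those of the other 3 mice. The agfp UMIs of these sets were 154 in control mouse 1, against 3476 and 2058 in the stroke mice and 3155 in control mouse 2. The GFP-rich set of control mouse 1 thus rested mainly on kgfp. The members of control mouse 1 held 10 kgfp UMIs, in 4 of 99 barcodes.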

How the results depend on the processing

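With 2 mice a group, no donor share can reach significance, and genes with few UMIs rest on single barcodes. Between members and 0-UMI macrophages, 632 genes were higher and 759 lower; leaving out a mouse gave 457 to 602 and 568 to 731, DESeq2 gave 299 and 414, all 713 of them shared, and the fit with no mouse block gave 495 lower. Between members and GFP-rich macrophages, 942 were higher and 1160 lower; leaving out a mouse gave 654 to 862 and 896 to 1203, and DESeq2 457 higher. Between donor groups, 0 were higher and 0 lower; no filter on low counts gave 22 and 28, and leaving out a mouse 0 to 41 and 0 to 44. Lower were 1 gene with at least 95% heart hashtag or with stricter limits on genes (500) and mitochondrial UMIs (5%), 2 with at least 3 Lyve1, Timd4 and Folr2 UMIs or with no marker UMI of other cells, and 3 after thinning or with GFP transcripts at 0. Il31ra was among them in each of these settings except the stricter limits on genes and mitochondrial UMIs. Replicate numbers in the labels do not say that mice were paired, and over 9562 genes the deviations of same-numbered mice correlated at -0.04; with the replicate block 2 genes, Ccl5 and Gzma, were lower. In the interaction, 2 genes were higher and 1 lower; leaving out a mouse gave 1 to 7 and 1 to 9, no filter 4 and 8, other size factors 1 higher, at least 3 gate UMIs 2 lower, GFP at 0 or no other marker UMI 1 and 0, C1q of at least 10 UMIs 1 higher, at least 500 genes 0 higher, the Scrublet limit 0 lower, and thinning, DESeq2 or no mouse block 0 and 0. Between Timd4-positive and Timd4-negative members, 14 were higher and 19 lower; leaving out a mouse gave 3 to 17 and 5 to 18, no filter 28 and 44, thinning 3 and 9, GFP at 0 8 higher, at least 500 genes 35 lower, no other marker UMI 37 lower, DESeq2 3 and 5, and no mouse block 0 and 2. The donor difference of Fn1, 0.19, ran from -5.76 without stroke mouse 2 to 2.43 without control mouse 1 and was -1.32 without control mouse 2, and the interaction of Gzma was 2.55 after thinning. The difference of members as a share of macrophages, 1.703 points, ran from -4.664 to 8.069 when a mouse was left out. Thinning here set only the sum of Lyve1, Timd4 and Folr2 used by the gate, while the tests used full counts. The cause of these changes was not tested. A lone mouse left in a group was assumed to vary like the others.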

Other observations

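Among 3262 genes with a mean of at least 50 CPM in the members, the highest mouse stood over the lowest by a median ratio of 1.24 (5 CPM added to each). Sema3c, a semaphorin gene, had 54.13 and 123.0 CPM in the stroke mice, against 16.41 and 101.4 in the control mice, a ratio of 5.98. Lyz1, a lysozyme gene that shares sequence with Lyz2, had 145.7 and 106.1 CPM in the stroke mice, against 24.62 and 95.78 in the control mice, a ratio of 5.09. The phosphodiesterase gene Pde4b had 120.7 and 154.4 CPM in the stroke mice, against 47.6 and 148.0 in the control mice. In these 3 genes control mouse 1 was the lowest of the 4 mice. The Langerin gene Cd207 had 108.7 and 174.3 CPM in the stroke mice, against 185.5 and 54.29 in the control mice, and the endothelin receptor gene Ednrb had 35.81 and 53.07 CPM, against 124.8 and 49.68, so that control mouse 1 was the highest for both.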
